A study of Rattus norvegicus with 60 samples.

Results

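The comparison of injured with sham-operated spinal cord at 24 h after medication rested on 8 of the 60 arrays of the series, chosen by the injury and time in their titles. These were 4 injured arrays, 2 of SCI_EtOH and 2 of SCI_MP, and 4 sham arrays, 2 of Sham_EtOH and 2 of Sham_MP. The series measured gene expression in rat spinal cord after a contusion, with or without the glucocorticoid methylprednisolone (MP), at 8 times from 0 to 48 h. Each array was hybridised with total RNA of 1 rat, so 2 rats stand for each group and time.

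All rats were female Long Evans animals of 8 or 9 weeks, anaesthetised with Zoletil and xylazine. SCI rats had a thoracic laminectomy and a contusion from a dropped weight (New York University impactor). MP rats received 30 mg/kg intravenously after the injury, and EtOH rats received the vehicle, 70% ethanol, alone. Sham rats were not contused and were given one of the same injections. Vehicle and anaesthetic were therefore common to all 4 groups, so neither can be assessed between them. The RNA came from 5 mm of cord at the lesion, a mixture of all cells there. In such bulk tissue, fewer cells of a type and less RNA per cell cannot be told apart.

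A contusion of the cord destroys neurons and axons at the site and opens its vessels. Neutrophils and then blood monocytes enter from the circulation, resident microglia and astrocytes turn reactive, and oligodendrocytes are lost along the damaged tracts. A day after the injury falls within this acute inflammatory phase, before the glial scar has formed and when dividing cells begin to appear.

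The deposited values were log2 values that lie around 0 for each probe set, and their point of reference is unknown. They therefore give differences between arrays and no level, so genes were not ranked by abundance and the tissue was not checked by the level of its markers. Over all genes, the 8 arrays had medians between -0.02 and 0.03. One array stood apart. On the first principal component, which held 76.5% of the variance over the 8 arrays, the sham arrays lay between -36.6 and -27.5. The other 3 injured arrays lay between 37.2 and 42.4, whereas SCI_MP duplicate 2 lay at 14.1. Its values over all genes also had a smaller spread, with an SD of 0.36 against 0.53 to 0.57 in the other injured arrays. Results that rest on this array are therefore given with and without it.

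Of 14324 genes, 3059 were higher in the injured cord at 24 h (21.4%) and 3111 were lower (21.7%) at an adjusted p under 0.05 (limma, Benjamini-Hochberg over all genes, medications weighted equally). The median difference of all genes was 0.04 on the log2 scale, that of the genes called higher was 0.49 and that of the genes called lower was -0.58. A log2 change of at least 1 was reached by 494 called genes that rose and 632 that fell. For 2439 genes (17%) all 4 injured arrays lay above all 4 sham arrays, and for 2765 (19.3%) all lay below. Without SCI_MP duplicate 2, 3081 genes were higher and 2906 lower. Over the 1126 genes called with a log2 change of at least 1, the median change of a single injured array against its own shams, in the called direction, was 1.56 and 1.44 in SCI_EtOH duplicates 1 and 2. It was 1.51 in SCI_MP duplicate 1 and 0.98 in SCI_MP duplicate 2. These genes were chosen with the same values, so the medians describe the arrays and test nothing.

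Several chemokines and receptors of myeloid cells were among the 15 largest rises. Ccl3, a chemokine that draws monocytes and neutrophils, stood at 1.84 and 2.57 in the SCI_EtOH arrays, at 1.62 and 1.60 in the SCI_MP arrays, at -2.54 and -2.81 in the Sham_EtOH arrays and at -2.18 and -2.66 in the Sham_MP arrays. All injured arrays lay far above all shams. The difference was 4.46 ± 0.44 on the log2 scale (SE of the limma fit, 4 injured against 4 sham arrays, adjusted p = 2.4e-10). This SE and those below use the spread shared over all 60 arrays, so they do not measure the spread of the 24 h arrays alone. Cxcl2, a neutrophil chemokine, was at 3.42 and 4.03 in SCI_EtOH, 2.57 and 2.05 in SCI_MP, -1.03 and -1.15 in Sham_EtOH and -1.28 and -1.03 in Sham_MP, a difference of 4.14 ± 0.39. Ccl2, the main monocyte chemokine, differed by 3.48 ± 0.31. It was at 1.81 and 1.63 in SCI_EtOH, 0.77 and 0.64 in SCI_MP, and between -2.71 and -1.95 in the sham arrays. In each of these chemokines both SCI_EtOH arrays lay above both SCI_MP arrays, a difference that did not pass the test of injury by medication.

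Receptors of myeloid cells rose too. Cxcr2, the neutrophil receptor for Cxcl2, was at 3.50 and 3.39 in SCI_EtOH, 2.89 and 1.58 in SCI_MP and between -0.54 and -0.32 in the shams, a rise of 3.24 ± 0.27 on the log2 scale. Ccr1, a receptor for Ccl3, rose by 3.17 ± 0.24. Il1r2, the decoy receptor that binds interleukin 1 without signalling and is abundant in neutrophils, rose by 3.83 ± 0.33, and Clec4d, a C-type lectin of myeloid cells, by 3.81 ± 0.34. For Clec4d the injured arrays ranged from 1.87 in SCI_MP duplicate 2 to 4.27 in SCI_EtOH duplicate 2, with all shams between -0.62 and -0.34. Lilrb4, an inhibitory receptor of myeloid cells, rose by 3.65 ± 0.25 and had nearly the same difference in both medications, 3.63 in EtOH rats and 3.68 in MP rats.

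The other genes among the 15 largest rises were of mixed kinds. Tfpi2, an inhibitor of serine proteases and the second largest rise, was at 3.02 and 2.30 in SCI_EtOH, 1.62 and 1.64 in SCI_MP and between -2.45 and -1.85 in the shams (4.35 ± 0.42). Hmox1, which degrades haem, rose by 3.48 ± 0.27, and Nos2, the inducible nitric oxide synthase, by 3.26 ± 0.31. Nos2 was at 3.27 and 3.99 in SCI_EtOH and at 1.40 and 2.03 in SCI_MP, against -0.67 to -0.47 in the shams. Il11, a cytokine of the interleukin 6 family, rose by 3.25 ± 0.22. The others were Gldn, which encodes gliomedin of the nodes of peripheral nerve (3.30 ± 0.28), Ucn2, a peptide of the corticotropin-releasing factor family (3.06 ± 0.25), and Dusp5, a phosphatase of ERK kinases (3.06 ± 0.24).

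**Figure D1:**
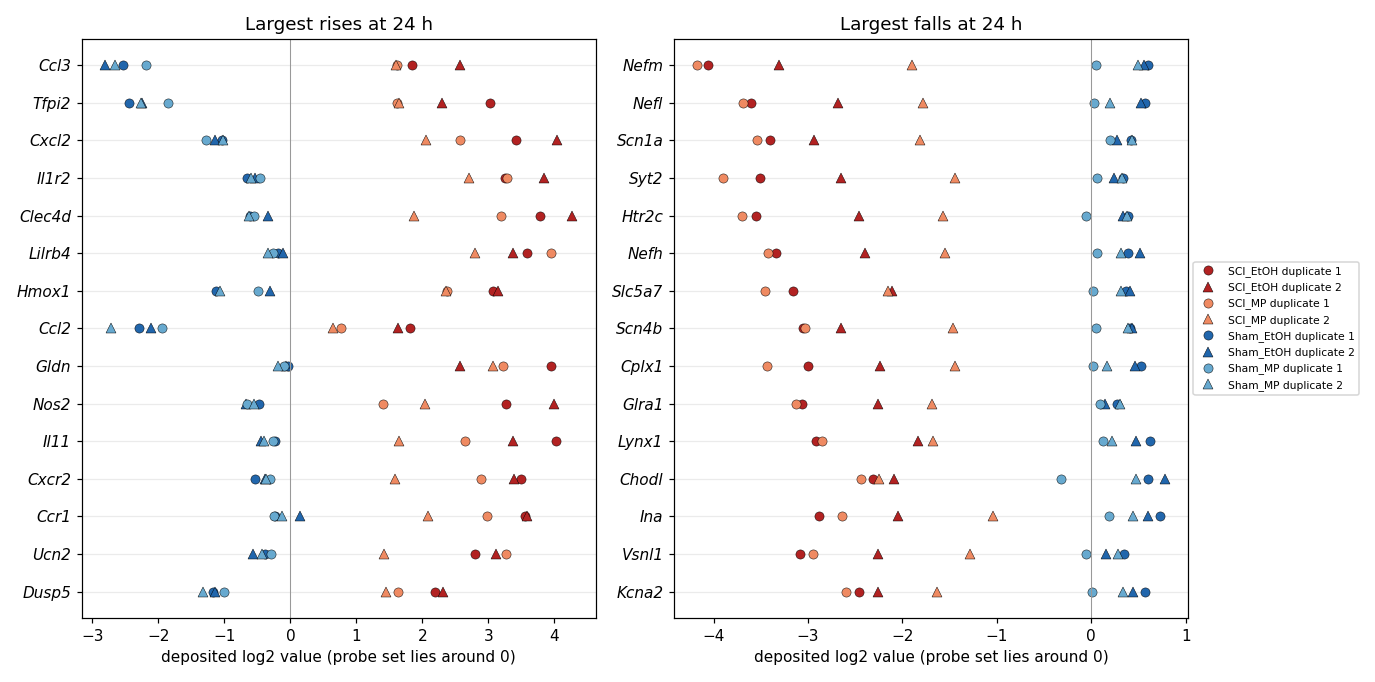
Deposited log2 values of the 15 genes with the largest rise and the 15 with the largest fall at 24 h, one symbol per array and one colour per group, with circles and triangles for duplicates 1 and 2. Every injured symbol lies apart from every sham symbol, by the rule that chose the genes, and the SCI_MP duplicate 2 triangles lie nearest to the shams for most genes that fell.

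Promoters of some leading genes that rose are shown, chosen because sequence motifs of inflammatory transcription factors could be read in them. Of the 15 genes with the largest rise, 10 had a window from 250 bases before to 50 bases after the annotated start in RefSeq (GRCr8). The first 4 of these that held an AP-1 or NF-kappaB motif are given. Ucn2 and Dusp5 also held such a motif, whereas the windows of Clec4d, Lilrb4, Cxcr2 and Ccr1 held neither. Capitals mark matches to AP-1 (TGANTCA), to the consensus of NF-kappaB or to the TATA box (TATAAA), searched on both strands. The windows are those of Tfpi2 at chr4:32941227-32941526, minus strand, of Cxcl2 at chr14:17467206-17467505, minus strand, of Gldn at chr8:63575020-63575319, plus strand, and of Il11 at chr1:78098372-78098671, plus strand.
Tfpi2: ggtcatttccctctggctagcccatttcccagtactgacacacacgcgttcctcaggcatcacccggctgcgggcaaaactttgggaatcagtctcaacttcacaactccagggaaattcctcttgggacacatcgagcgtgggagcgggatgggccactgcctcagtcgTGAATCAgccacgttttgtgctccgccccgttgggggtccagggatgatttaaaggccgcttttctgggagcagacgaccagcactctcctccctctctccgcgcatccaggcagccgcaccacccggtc
Cxcl2: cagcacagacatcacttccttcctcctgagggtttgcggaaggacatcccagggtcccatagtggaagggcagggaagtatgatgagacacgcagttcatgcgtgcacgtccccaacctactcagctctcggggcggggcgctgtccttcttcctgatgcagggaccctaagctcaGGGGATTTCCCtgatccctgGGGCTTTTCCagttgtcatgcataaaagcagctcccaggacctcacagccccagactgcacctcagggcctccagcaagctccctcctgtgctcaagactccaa
Gldn: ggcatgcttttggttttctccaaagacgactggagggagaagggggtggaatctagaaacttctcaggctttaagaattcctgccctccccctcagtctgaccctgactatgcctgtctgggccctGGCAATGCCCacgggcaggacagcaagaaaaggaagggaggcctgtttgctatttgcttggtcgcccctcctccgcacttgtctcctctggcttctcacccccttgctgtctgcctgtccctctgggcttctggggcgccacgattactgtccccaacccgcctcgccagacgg
Il11: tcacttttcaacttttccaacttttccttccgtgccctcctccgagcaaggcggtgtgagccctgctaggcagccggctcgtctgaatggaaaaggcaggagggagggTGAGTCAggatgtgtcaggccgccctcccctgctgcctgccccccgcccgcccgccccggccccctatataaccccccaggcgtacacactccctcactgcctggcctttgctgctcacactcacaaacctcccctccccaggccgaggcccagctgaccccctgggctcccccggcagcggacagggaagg

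Tfpi2 and Il11 each held 1 AP-1 motif, Gldn held 1 match to the loose NF-kappaB pattern and Cxcl2 held 3, of which a pair overlap. The AP-1 letters stood in 6.24% of the 11823 promoters of tested genes, in 7.33% of those of genes called higher, in 4.5% of those called lower, and in 15.8% of the 57 with a log2 rise of at least 2. For the loose NF-kappaB pattern these shares were 4.97%, 6.27%, 4.34% and 15.8%. A TATA box stood in 11.8% of all promoters, 10.7% of those called higher, 5.69% of those called lower and 26.3% of those with the large rises. Among the 51 promoters of genes with a log2 fall of at least 2, the shares were 3.92% for AP-1, 5.88% for NF-kappaB and 9.8% for the TATA box. Letters of STAT (TTCNNNGAA) and of the antioxidant response element (TGANNNNGC) stood in 10.5% and 45.6% of the promoters with large rises, against 7.6% and 42.2% of all. The CCAAT box stood in 31.6% against 38.3%, and the cell cycle homology region (TTTGAA) in 14% against 15.2%. These matches describe the letters in the windows and show no binding.

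Neurofilaments, ion channels and other neuronal genes were among the 15 largest falls. Nefm, the medium neurofilament of axons, was at -4.06 and -3.31 in SCI_EtOH, -4.17 and -1.90 in SCI_MP, 0.60 and 0.56 in Sham_EtOH and 0.05 and 0.49 in Sham_MP. The difference was -3.79 ± 0.30 on the log2 scale, and -4.35 without SCI_MP duplicate 2, the injured array nearest to the shams. The light and heavy neurofilaments Nefl and Nefh differed by -3.27 ± 0.25 and -3.00 ± 0.25, and Ina, their partner internexin, by -2.64 ± 0.19. Scn1a, a voltage-gated sodium channel, was at -3.40 and -2.94 in SCI_EtOH, -3.54 and -1.82 in SCI_MP and between 0.19 and 0.43 in the shams, a difference of -3.26 ± 0.22. Falls of like size were found for Syt2, a calcium sensor of transmitter release (-3.11 ± 0.28), for Htr2c, a serotonin receptor (-3.08 ± 0.27), and for Glra1, a subunit of the inhibitory glycine receptor (-2.74 ± 0.20). Kcna2, a potassium channel of axons, differed by -2.58 ± 0.13, the smallest SE of these genes.

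Slc5a7, which takes up choline in motor neurons, was at -3.15 and -2.12 in SCI_EtOH, -3.46 and -2.15 in SCI_MP and between 0.01 and 0.41 in the shams (-3.00 ± 0.27). Chodl, a marker of fast motor neurons, fell nearly alike in all injured arrays, which lay between -2.44 and -2.09. Its shams were at 0.60 and 0.78 in Sham_EtOH and at -0.32 and 0.47 in Sham_MP, and the difference was -2.65 ± 0.22. In 5 lists of neuronal genes most measured members fell, as against 21.7% of all genes. Lists and members were chosen with earlier results of these data known, so these and the later list counts are descriptions, not independent tests. Of 27 measured genes of the synaptic vesicle cycle, 24 fell (median log2 difference -1.64), of 20 structural genes 17 (-1.38), of 20 genes of GABA and glycine transmission 19 (-1.37), of 23 glutamate receptor subunits 21 (-1.10) and of 21 potassium channel subunits 17 (-1.30). None rose in these lists. Without SCI_MP duplicate 2 their medians were -1.86, -1.61, -1.59, -1.22 and -1.46.

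Of 11 measured sodium channel subunits 7 fell and none rose (median -0.89). Examples in the neuronal lists were Vamp1, a vesicle protein of the release machinery (-2.45 ± 0.17), Slc6a5, the glycine transporter of inhibitory terminals (-2.52 ± 0.20), Grin1, the obligatory NMDA receptor subunit (-2.08 ± 0.18), and Scn8a, the sodium channel of nodes of Ranvier (-2.45 ± 0.15). Slc12a5, the chloride extruder of neurons, fell by 2.52 on the log2 scale (SE 0.19).

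Neuropeptide genes went the other way. Of 19 measured, 10 rose, against 21.4% of all genes, and 3 fell, with a median of 0.29. Without SCI_MP duplicate 2 the median was 0.28, though fewer members were called higher. In MP rats alone the median was 0.32, and 0.18 without that array. Trh, thyrotropin-releasing hormone, was at 3.45 and 3.11 in SCI_EtOH, 2.19 and 2.44 in SCI_MP and between -0.28 and -0.09 in the shams, a rise of 3.01 ± 0.17 on the log2 scale. Gal, galanin, rose by 2.09 ± 0.18 and Npy, neuropeptide Y, by 2.02 ± 0.17, both peptides that injured neurons are known to produce. The Npy values were 1.25 and 1.16 in SCI_EtOH and 1.36 and 1.47 in SCI_MP, against -0.83 to -0.50 in the shams. In these 3 genes SCI_MP duplicate 2 was not nearer to the shams than SCI_MP duplicate 1. Of the 16 measured genes of cholinergic motor neurons 13 fell, Slc5a7 the most, and 1 rose. The one that rose was Mmp9 (2.05 ± 0.22), a protease of fast motor neurons that neutrophils also release and that stands in their list too.

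Among markers of cells that come from the blood, 14 of 19 measured neutrophil genes rose and none fell (median 1.02), and 14 of 18 monocyte and macrophage genes rose and none fell (median 1.36). S100a9, a calcium-binding protein of neutrophils, was at 2.10 and 2.90 in SCI_EtOH, 2.10 and 1.42 in SCI_MP and between -0.41 and -0.23 in the shams (2.46 ± 0.21). Cd14, the monocyte co-receptor for endotoxin, rose by 2.22 ± 0.26, and Fcgr2b, an inhibitory antibody receptor, by 2.04 ± 0.21. Without SCI_MP duplicate 2 the medians were 1.10 and 1.63. After quantile normalization they were 0.63 and 0.82.

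Of 20 measured lymphocyte genes 4 rose, a share near the 21.4% of all genes, and 1 fell (median 0.08). Without SCI_MP duplicate 2, 5 rose and none fell, and the median was 0.13. The largest of these rises were small, 0.39 ± 0.12 for Gzmb, a protease of cytotoxic cells, 0.35 ± 0.09 for Ncr1, a receptor of natural killer cells, and 0.32 ± 0.08 for Cd2. Genes of class II antigen presentation were between these, with 7 of 15 higher and none lower over both medications (median 0.26). In EtOH rats alone 6 were higher and 1 lower (median 0.31), and in MP rats alone none was called (median 0.21). Cd80, a co-stimulatory molecule, rose by 1.02 ± 0.19.

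Erythrocyte and platelet genes rose in 7 of 9 measured members (median 0.81). Hbb, the beta chain of haemoglobin, was at 0.34 and 0.44 in SCI_EtOH and 0.64 and 0.67 in SCI_MP. The shams were at -1.49 and -0.06 in Sham_EtOH and at -1.97 and -1.23 in Sham_MP, a range among shams that was wider than the difference between the groups (1.71 ± 0.36). Pf4, a platelet chemokine, rose by 1.68 ± 0.28. Blood RNA thus moved with injury beside the leukocyte genes, and its part in them was not tested. The median of the list was 0.43 in EtOH rats and 1.23 in MP rats.

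Cytokine genes rose in 22 of 27 measured members and chemokines in 17 of 27, with 0 and 1 lower (medians 1.06 and 0.63). Lif, a cytokine of the interleukin 6 family, rose by 2.74 ± 0.29 and Inhba, a subunit of activin, by 2.65 ± 0.22. The Toll-like receptor and NF-kappaB list had 17 of 20 members higher and 1 lower (median 0.57). Nfkbia, the inhibitor that NF-kappaB itself induces, rose by 2.18 ± 0.25 and Myd88, the adaptor of Toll-like receptors, by 1.06 ± 0.12. The share was lower among interferon response genes, 11 of 28 higher and 2 lower (median 0.25). Oasl rose by 1.48 ± 0.18 in that list, whereas Mx2, an antiviral GTPase, fell by 1.33 (SE 0.41), its injured arrays lying between -0.48 and 0.19 and its shams between 0.55 and 1.81.

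Of complement genes 8 of 17 rose and 1 fell (median 0.33). C1qc, a chain of the recognition molecule of the classical pathway, rose by 1.15 ± 0.16, and Cd55, which protects cells from complement, by 2.24 ± 0.33. Itgb2, the chain shared by the leukocyte integrins, rose by 1.69 ± 0.19 and Itga5, the fibronectin receptor chain, by 2.71 ± 0.22. They were among 9 of 17 measured adhesion molecules that rose, while 3 fell (median 0.37).

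Of 14 measured genes of homeostatic microglia 8 fell and 1 rose (median -0.63). P2ry12, the ADP receptor by which these cells sense damage, was at -1.35 and -1.32 in SCI_EtOH, -1.26 and -1.11 in SCI_MP and between -0.20 and 0.19 in the shams (-1.29 ± 0.18). Cx3cr1, the fractalkine receptor, was at -0.49 and -0.44 in SCI_EtOH and -1.21 and -1.10 in SCI_MP, against 0.21 to 0.39 in the shams (-1.14 ± 0.22). The member that rose was Itgam, the CD11b chain, which neutrophils and monocytes also carry (1.43 ± 0.18). Itgam also stands in the complement and adhesion lists. Among genes of phagocyte lipid handling and lysosomes 13 of 25 rose and 2 fell (median 0.36, and 0.17 after quantile normalization). Plin2, which coats lipid droplets, rose by 2.69 ± 0.22 and Cd36, a scavenger receptor, by 1.44 ± 0.20.

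Astrocyte genes split by role. All 14 measured genes of resting astrocytes fell, with a median of -1.17, and -1.28 without SCI_MP duplicate 2. Slc1a2, the main glutamate transporter, was at -1.48 and -1.45 in SCI_EtOH, -2.12 and -0.73 in SCI_MP and between 0.06 and 0.28 in the shams (-1.61 ± 0.18). Slc7a10, an amino acid exchanger of astrocytes, fell by 2.02 (SE 0.20), and Slc6a11, a GABA transporter, by 1.74 (SE 0.22). Atp1b2, a sodium pump subunit of astrocytes, fell by 1.76 (SE 0.17). Of 23 measured reactive astrocyte genes, in contrast, 20 rose and 1 fell (median 1.31). Nes, the intermediate filament nestin, was at 2.56 and 2.83 in SCI_EtOH, 2.26 and 2.17 in SCI_MP, and at -0.29, -0.01, 0.64 and -0.47 in the shams (2.48 ± 0.15). Tgm2, a transglutaminase, rose by 2.21 ± 0.24, Socs3, a brake on cytokine signalling, by 1.98 ± 0.22, and Ptgs2, the inducible cyclooxygenase, by 1.85 ± 0.27. None of these 4 genes is made by astrocytes alone.

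The list of ion and water homeostasis genes, several of them astrocytic, had 10 of 15 members lower and 2 higher (median -0.71). Aqp4, the water channel of astrocyte endfeet, was at -1.38 and -1.35 in SCI_EtOH, -1.02 and -0.56 in SCI_MP and between 0.03 and 0.20 in the shams (-1.19 ± 0.13).

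Genes of the oligodendrocyte lineage fell. Of 17 measured myelin and mature oligodendrocyte genes 12 fell and none rose (median -0.64, -0.83 without SCI_MP duplicate 2 and -0.40 after quantile normalization). Ugt8, which makes the myelin lipid galactocerebroside, was at -1.17 and -1.84 in SCI_EtOH and -1.31 and -0.99 in SCI_MP, with all shams between -0.08 and -0.01 (-1.29 ± 0.19). Fa2h, which hydroxylates myelin lipids, fell by 1.12 (SE 0.15), Ermn, a cytoskeletal protein of mature oligodendrocytes, by 1.27 (SE 0.17), and Aspa, aspartoacylase, by 1.18 (SE 0.21). Of 11 measured genes of oligodendrocyte precursors 7 fell and 2 rose (median -0.81, and -0.35 after quantile normalization). Gpr17, a receptor of committed precursors, was at -1.52 and -1.78 in SCI_EtOH and -2.07 and -2.16 in SCI_MP, the lowest value being that of SCI_MP duplicate 2. It differed by -1.93 ± 0.13. Vcan, the proteoglycan versican, which macrophages and fibroblasts also make, was the larger of the rises in that list (1.33 ± 0.15). Ependymal and ciliary genes fell in 5 of 9 members by small amounts (median -0.20), Enkur by the most (-0.68 ± 0.13).

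Cholesterol synthesis genes fell in 12 of 17 measured members and rose in none (median -0.41). Sc5d and Fdft1, enzymes of that pathway, fell by 0.97 (SE 0.17) and 0.88 (SE 0.13). Glycolysis genes were divided, with 11 of 24 higher and 7 lower (median 0.14). Hk2, the inducible hexokinase, rose by 2.05 ± 0.23 and Ldha, which makes lactate, by 1.99 ± 0.13, while Pfkm, a phosphofructokinase isoform of muscle and neurons, fell by 1.57 (SE 0.10). Ldha was the mean of 2 probe sets, which differed by 1.64 and 2.33. Of 30 measured subunits of the respiratory chain and ATP synthase 13 fell and 2 rose (median -0.20). Sdha, the catalytic subunit of complex II, fell by 0.89 (SE 0.09).

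Cytosolic ribosomal protein genes rose in 36 of 37 measured members (median 0.69). Rps18 was at 1.39 and 1.42 in SCI_EtOH, 1.07 and 0.78 in SCI_MP and between -0.41 and 0.19 in the shams (1.29 ± 0.14). These genes have many near-identical copies in the genome, 25 of the 37 were means of several probe sets, and their assignment is uncertain.

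Immediate early transcription factors rose in 16 of 20 measured members (median 1.33) and fell in none. Fos was at 0.62 and 0.86 in SCI_EtOH, 1.01 and 1.63 in SCI_MP and between -1.23 and -0.56 in the shams (2.00 ± 0.21), so its highest value was in SCI_MP duplicate 2. Egr1 rose by 2.20 ± 0.26 and Myc by 1.93 ± 0.16. Stress genes rose in 13 of 22 members and fell in 2 (median 0.53). Atf3, a marker of injured neurons, rose by 2.54 ± 0.18 and Ddit3, the factor CHOP of the unfolded protein response, by 1.24 ± 0.13. Of apoptosis and p53 genes 18 of 26 rose and 1 fell (median 0.55). Cdkn1a, the p21 inhibitor of the cell cycle, rose by 2.05 ± 0.21 and Tnfrsf12a, the receptor of TWEAK, by 2.23 ± 0.16.

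Haem, iron and metallothionein genes rose in 9 of 21 members and fell in 2 (median 0.23). Mt1, a metallothionein that binds zinc and copper, was at 0.50 and 0.24 in SCI_EtOH, 0.69 and 0.75 in SCI_MP and between -1.62 and -0.73 in the shams (1.85 ± 0.22). Cd163, the receptor by which macrophages take up haemoglobin, rose by 1.56 ± 0.24. NRF2 target genes, which counter oxidants, rose in 11 of 20 members and fell in 1 (median 0.33), led by Hmox1 and, after it, Txn1, thioredoxin (1.25 ± 0.15). Of 22 measured glucocorticoid target genes 12 rose and 2 fell (median 0.67). Dusp1, a phosphatase of stress kinases, rose by 1.88 in EtOH rats and by 2.35 in MP rats, and the difference between the medications did not pass the test. Median differences of that list were 0.75 in EtOH rats and 0.61 in MP rats, and 0.49 over both without SCI_MP duplicate 2.

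Vessel genes did not move as one. Of 21 measured endothelial and pericyte genes 5 rose, a share near the 21.4% of all genes, and 7 fell. Their median was -0.16, and -0.04 without SCI_MP duplicate 2. Slco1a4, an organic anion transporter of the blood-brain barrier, was at -1.68 and -1.93 in SCI_EtOH, -1.31 and -1.78 in SCI_MP and between 0.52 and 0.80 in the shams (-2.34 ± 0.25). Its relative Slco1c1, which carries thyroid hormone, fell by 2.22 (SE 0.23), and Rgs5, a pericyte gene, by 1.30 (SE 0.15). Anpep, an aminopeptidase of pericytes that myeloid cells also carry, rose by 1.85 ± 0.21. Of 25 angiogenic ligands and receptors 18 rose and 4 fell (median 0.63). Hbegf, a ligand of the EGF receptor, rose by 2.49 ± 0.27, Adm, the vasodilator adrenomedullin, by 2.13 ± 0.22, and Angpt2, which loosens vessel walls, by 1.70 ± 0.17.

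Matrix genes rose in part. Of 15 collagens and matrix glycoproteins 10 rose and 1 fell (median 0.69). This median rested on the processing and on 1 array, being 0.18 after quantile normalization and 1.03 without SCI_MP duplicate 2. Fn1, fibronectin, rose by 1.62 ± 0.21 and Lox, which cross-links collagen, by 1.39 ± 0.30. Of 23 metalloproteinases and inhibitors 14 rose and 3 fell (median 0.44, and 0.67 without SCI_MP duplicate 2). Mmp3, a stromelysin, rose by 2.51 ± 0.25 and Adamts1, a protease of proteoglycans, by 2.17 ± 0.23. Of 19 plasminogen and coagulation genes 12 rose and none fell (median 0.74), among them Plaur, the urokinase receptor (2.04 ± 0.19).

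Chondroitin sulphate proteoglycan and hyaluronan genes went both ways, 7 of 19 higher and 8 lower. Their median was -0.12, and turned to 0.02 without SCI_MP duplicate 2. Has1, a hyaluronan synthase, rose by 2.21 ± 0.30, while Cspg5, Tnr and Hapln4, components of the matrix around neurons, fell by 1.68 (SE 0.12), 1.69 (SE 0.16) and 1.46 (SE 0.16). Of 17 Schwann cell and meningeal fibroblast markers 5 rose and 2 fell, against 21.4% and 21.7% of all genes, so the share of rises was near that of all genes. Their median was 0.13, and 0.40 without SCI_MP duplicate 2. Mgp, matrix Gla protein, rose by 1.53 ± 0.25 and Crabp2, which binds retinoic acid, by 1.83 ± 0.31. Skeletal muscle markers, which would mark tissue taken along with the cord, rose in 0 of 15 members, and 2 were lower (median 0.02, and 0.01 without SCI_MP duplicate 2). The larger of these was Pvalb (-1.77 ± 0.19), which spinal neurons also express.

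**Figure D2:**
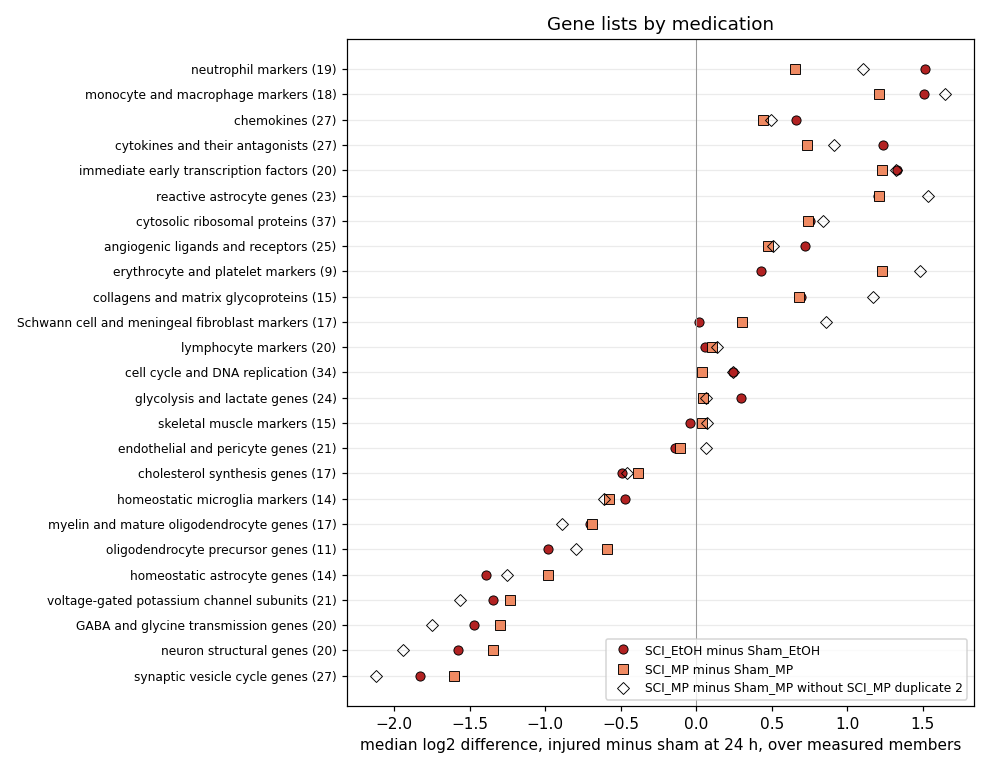
Median log2 difference between injured and sham arrays at 24 h over the measured members of 25 gene lists, the number of members in brackets, in EtOH rats (circles), in MP rats (squares) and in MP rats without SCI_MP duplicate 2 (diamonds). The neutrophil median was 1.51 in EtOH rats, 0.65 in MP rats and 1.10 without that array, and the synaptic vesicle median was -1.83, -1.60 and -2.12.

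Within each medication the injury contrast had its own control rats. In EtOH rats 2770 genes were higher (19.3%) and 2589 lower (18.1%), and in MP rats 1494 were higher (10.4%) and 2185 lower (15.3%). Called in both were 3044 genes, 56.8% of the EtOH calls and 82.7% of the MP calls, and 3 of them had opposite directions. Of the 6170 genes called over both medications, 6115 had the same sign in each. Over the 1426 genes called in EtOH rats with a log2 change of at least 1, the median ratio of MP to EtOH injury effect was 0.76. Without SCI_MP duplicate 2, the array that stood apart, this ratio was 0.94. These genes were chosen by their EtOH effect, so the ratios describe the arrays and test nothing. Without Sham_EtOH duplicate 1 the rises in EtOH rats numbered 1772. In MP rats they numbered 931 without Sham_MP duplicate 2 and 787 without SCI_MP duplicate 1, when the falls numbered 1415.

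A difference between the medications in the response to injury was tested for each gene by the interaction. It was higher in MP rats for 3 genes (0.0209%) and lower for 40 (0.279%), and 37 of these were also called for injury itself. Of all genes, 1490 had an unadjusted p under 0.05. Arg1, arginase of alternatively activated macrophages, was at 2.71 and 3.09 in SCI_EtOH and at 0.75 and 0.20 in SCI_MP, with shams between -1.04 and -0.64. Its injury effect was 3.75 in EtOH rats and 1.18 in MP rats, a difference of -2.57 ± 0.52 on the log2 scale (adjusted p = 0.018). Both SCI_MP arrays lay above all shams and below both SCI_EtOH arrays.

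Ccl12, a monocyte chemokine, rose by 2.06 in EtOH rats and differed by 0.08 in MP rats. It was at 1.87 and 2.24 in SCI_EtOH and at 0.28 and -0.03 in SCI_MP, and the shams lay between -0.13 and 0.12. SCI_MP duplicate 2 thus lay within the range of the shams. The difference between medications was -1.98 ± 0.25 (adjusted p = 7e-05), the smallest p of the genes named for this contrast. Cxcr4, the receptor for the stromal chemokine Cxcl12, was at 1.63 and 1.49 in SCI_EtOH and at 0.35 and 0.02 in SCI_MP, and differed by -1.57 ± 0.26 (adjusted p = 0.0024).

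Mmp9, gelatinase B of neutrophils, was at 2.22 and 3.48 in SCI_EtOH and at 1.01 and 0.94 in SCI_MP, with shams between -0.21 and -0.04 (difference of the rises -1.97 ± 0.43, adjusted p = 0.034). G0s2, an inhibitor of lipolysis, had an injury effect of 2.72 in EtOH rats and 0.67 in MP rats (-2.05 ± 0.36), and Slc16a3, the lactate exporter of glycolytic cells, of 3.40 and 1.54 (-1.86 ± 0.40). For Cyp4f18, a fatty acid hydroxylase of myeloid cells, the effects were 2.52 and 0.90 (-1.62 ± 0.27), and for Slamf9, a receptor of macrophages, 1.97 and 0.39 (-1.58 ± 0.33). The MP effects of G0s2 and Slamf9 did not pass the test on their own. In these 5 genes both SCI_MP arrays lay below both SCI_EtOH arrays. The 3 genes in the other direction were Rpl22l1, a ribosomal protein paralogue (1.14 ± 0.27), Efnb3, an ephrin of axon guidance (0.94 ± 0.20), and Htatsf1, a splicing factor (0.86 ± 0.20). For Rpl22l1 the Sham_MP arrays, at -0.52 and -0.30, were the lowest, and injured and sham arrays overlapped in all 3.

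These interaction calls depended on single arrays. Without SCI_MP duplicate 2 the difference was higher for 3 genes and lower for 10, and 11 of these 13 were among the 43. G0s2, Ccl12, Cyp4f18, Cxcr4 and Rpl22l1 stayed under an adjusted p of 0.05, the last 4 with log2 differences of -1.82, -1.43, -1.40 and 1.38, whereas the other 6 named genes did not. These were Arg1 (-2.30, adjusted p = 0.16), Mmp9 (-1.93, adjusted p = 0.17), Slc16a3 (-1.62, adjusted p = 0.24), Slamf9 (-1.15, adjusted p = 0.32), Efnb3 (0.79, adjusted p = 0.26) and Htatsf1 (0.96, adjusted p = 0.089). Without SCI_MP duplicate 1 the calls numbered 138 higher and 284 lower. They numbered 0 and 9 without Sham_EtOH duplicate 1, 0 and 15 without duplicate 2 of that group, and 0 and 12 without Sham_MP duplicate 1. Without Sham_MP duplicate 2 they were 6 and 54, and without SCI_EtOH duplicate 2 they were 2 and 14. A fit of the 8 arrays alone called none, with 1414 genes at an unadjusted p under 0.05, and after quantile normalization 4 genes were higher and 1 lower.

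By list, in the fit of all arrays, 3 of the 19 neutrophil genes and 2 of the 24 glycolysis genes had a lower injury effect in MP rats. So did 1 each of the chemokines, cytokines, monocyte genes, metalloproteinases and motor neuron genes, and no member of any list had a higher one. These list counts did not hold without SCI_MP duplicate 2. The neutrophil median was 1.51 in EtOH rats, 0.65 in MP rats and 1.10 in MP rats without that array. The lists overlap, since Mmp9 alone stands in those of neutrophils, metalloproteinases and motor neurons. In the other lists no member passed this test, which does not show that the medications acted alike.

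**Figure D3:**
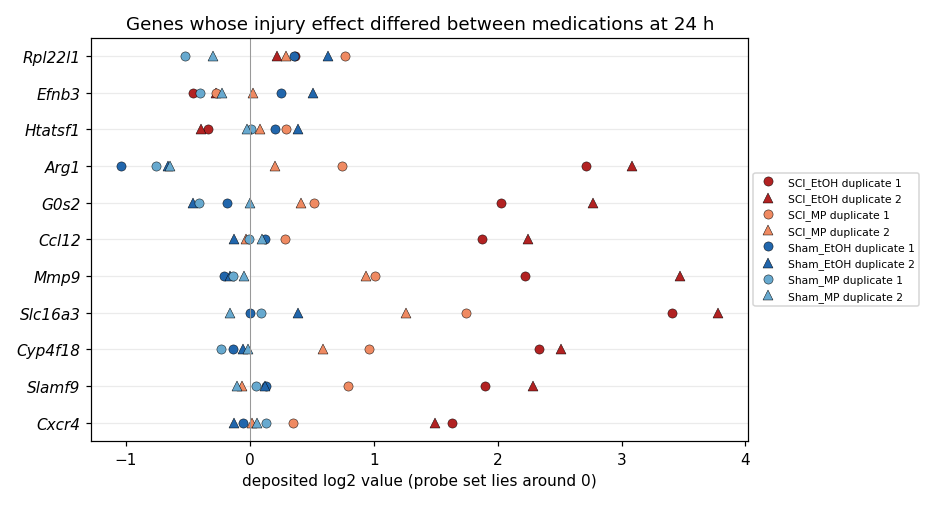
Deposited log2 values at 24 h of the 3 genes with a higher and the 8 with the lowest injury effect in MP rats relative to EtOH rats, one symbol per array. In the 8 lower genes both SCI_EtOH arrays lie above both SCI_MP arrays, while in Ccl12, Cxcr4 and Slamf9 SCI_MP duplicate 2 lies among the shams.

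The 24 h response was set against that of 12 h, measured in other rats. Of the genes called at 24 h, 66.7% were also called at 12 h, and of those called at 12 h, 66.7% were called at 24 h, with 76 genes in opposite directions. The injury effect was higher at 24 h than at 12 h for 669 genes (4.67%) and lower for 278 (1.94%). Among these 947 genes, 441 were higher in injured cord at 24 h and more so than at 12 h, and 196 were lower at 24 h and more so than at 12 h. Another 228 had fallen at 12 h and 82 had risen at 12 h, with an effect of smaller size and either sign at 24 h. Without SCI_MP duplicate 2 the counts were 1155 higher and 516 lower, and without SCI_MP duplicate 1 they were 270 and 139. They were 278 and 158 without Sham_EtOH duplicate 1, and 391 and 175 without Sham_MP duplicate 2. The arrays of 12 and 24 h alone gave 347 and 198. After quantile normalization 80 were higher and 125 lower, so the split between the directions turned.

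Genes of monocytes and macrophages were among the increases. Gpnmb, a glycoprotein of lipid-laden macrophages, differed by -0.33 at 12 h and by 1.38 at 24 h (change 1.71 ± 0.40, adjusted p = 0.0086). It was at 2.94 and 3.35 in SCI_EtOH and at 1.95 and 0.76 in SCI_MP, and as its shams reached 1.48 the groups overlapped. Ccl7, a monocyte chemokine, went from 1.23 to 2.79 (change 1.56 ± 0.33) and Ccl12 from -0.51 to 1.07 (1.58 ± 0.18). Il11 went from 1.59 to 3.25 (1.66 ± 0.31). Vgf, a neurosecretory protein, differed by 0.24 at 12 h and by 1.70 at 24 h, and Cdo1, an enzyme of cysteine breakdown, differed by -0.13 and 1.34. Of the monocyte and macrophage genes 4 of 18 had a higher injury effect at 24 h and none a lower one. Of the neutrophil genes none was higher and 2 of 19 were lower. For these and the other list counts against 12 h, the shares of all genes were 4.67% higher and 1.94% lower. The monocyte median was 0.75 at 12 h and 1.36 at 24 h, that of neutrophils 1.29 and 1.02. Over the neutrophil genes the median change between these times was -0.09. Their 24 h median was 1.51 in EtOH rats, 0.65 in MP rats and 1.10 in MP rats without SCI_MP duplicate 2.

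A pair of transporters differed in the same way with less certainty. Slc6a20a, a proline transporter, had an injury effect of -2.08 at 12 h and -0.01 at 24 h, and Slc2a12, a glucose transporter, -0.69 and 0.85. Both had a low value in SCI_MP duplicate 2, -1.08 and -0.69, against 0.31 to 1.71 in the other injured arrays. Without that array the 24 h effects were 0.52 and 1.36.

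Barrier, pericyte and microglial genes were among the decreases. Slco1a4 had an injury effect of -0.47 at 12 h and -2.34 at 24 h (change -1.87 ± 0.36, adjusted p = 0.0017), and Slco1c1 of -0.63 and -2.22. Rgs5 went from 0.20 to -1.30 (-1.51 ± 0.21) and Itm2a, a membrane protein of endothelium, from 0.25 to -1.33. Of the 21 endothelial and pericyte genes 7 had a lower injury effect at 24 h and 1, Anpep, a higher one. P2ry12 and P2ry13, the ADP receptors of microglia, went from 0.08 to -1.29 and from 0.55 to -0.84. For P2ry13 the injured arrays lay between -1.21 and -0.58 and the shams between -0.35 and 0.46. Of the 14 microglia genes 4 had a lower effect at 24 h and none a higher one, and the list's median was 0.00 at 12 h. Grm3, a glutamate receptor of astrocytes, went from -0.04 to -1.54. Dio2, which activates thyroid hormone, had an injury effect of 1.78 at 12 h and of 0.36 at 24 h, which did not pass the test.

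The median of the 17 myelin genes was -0.20 at 12 h and -0.64 at 24 h, and 4 of the 17 had a lower effect at 24 h and none a higher one, among the lower Ermn (-0.19 and -1.27) and Fa2h (-0.28 and -1.12). Of the 11 precursor genes 4 were lower and 1, Vcan, higher. Of the 24 glycolysis genes 9 had a higher effect at 24 h and none a lower one, and the list's median was -0.23 at 12 h and 0.14 at 24 h. Ldha went from 1.39 to 1.99. Angpt2 had an injury effect of 0.48 at 12 h and 1.70 at 24 h (change 1.22, adjusted p = 0.0023).

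**Figure D4:**
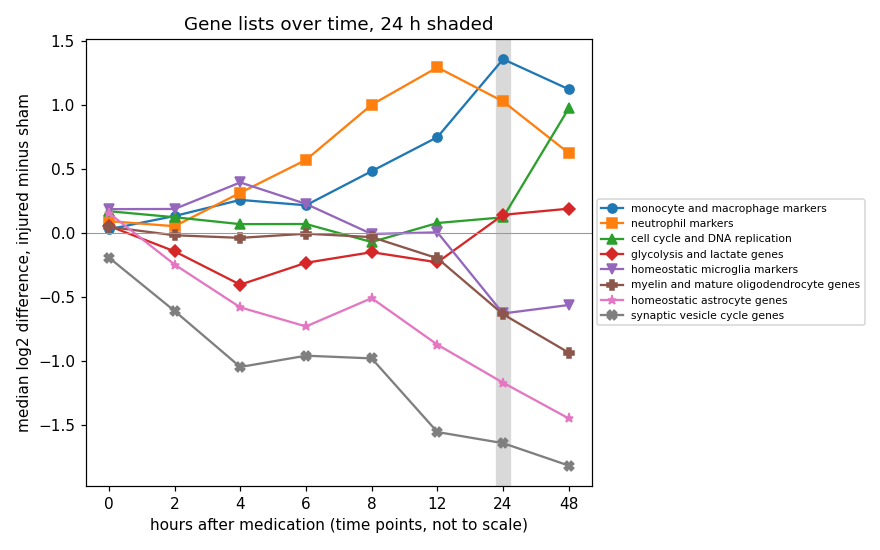
Median log2 difference between injured and sham arrays over the measured members of 8 gene lists at each time point, with 24 h shaded and both medications weighted equally (EtOH rats alone at 0 h). At 24 h the monocyte and macrophage median, 1.36, lay above the neutrophil median, 1.02, an order that came from MP rats (1.21 and 0.65), since both were 1.51 in EtOH rats. The homeostatic microglia median, -0.63, was near the myelin median, -0.64.

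From 24 to 48 h fewer genes differed. Of the 24 h calls 81.4% were also called at 48 h, and of the 48 h calls 79.7% at 24 h, with 0 in opposite directions. The injury effect was higher at 24 h for 5 genes (0.0349%) and lower for 15 (0.105%), and 1054 genes had an unadjusted p under 0.05. Inhba rose by 2.65 at 24 h and by 1.10 at 48 h (difference 1.55 ± 0.31, adjusted p = 0.021). It was at 1.92 and 1.87 in SCI_EtOH and 1.35 and 1.28 in SCI_MP at 24 h, against -1.15 to -0.86 in the shams. Nuak2, a kinase of the AMPK family, rose by 1.35 and 0.60.

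Nppb, the B-type natriuretic peptide, differed from both neighbouring times. At 24 h it was at 0.74 and 0.91 in SCI_EtOH, 1.44 and 0.50 in SCI_MP and between -0.15 and 0.04 in the shams. Its injury effect was 0.06 at 12 h, 0.95 ± 0.11 at 24 h and 0.18 at 48 h. The change from 12 h was 0.88 (adjusted p = 0.00083) and the difference from 48 h 0.77 (adjusted p = 0.018). No other of the 14324 genes passed both tests in this fit. The call against 48 h was lost after quantile normalization (0.43, adjusted p = 0.38), in the fit of the 24 and 48 h arrays alone (adjusted p = 0.54), without SCI_EtOH duplicate 2 (adjusted p = 0.064) and without Sham_EtOH duplicate 2 (adjusted p = 0.076). Dao, D-amino acid oxidase, and Sfxn5, a mitochondrial carrier, fell at 24 h by 0.51 and 0.74 and at 48 h by 1.45 and 1.36.

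The 8 genes past the threshold with the most negative difference, 24 h minus 48 h, included Kng2, a kininogen (-1.02), and several genes known from dividing cells. Mms22l, a factor of replication fork repair, differed by 0.30 at 24 h and 1.43 at 48 h (-1.13 ± 0.16, adjusted p = 2e-04), and Tyms, thymidylate synthase, by -0.10 and 1.01. Ska3 and Kntc1 of the kinetochore differed by 0.18 and 0.02 at 24 h and by 1.30 and 1.12 at 48 h, and Cdc25c, the phosphatase that triggers mitosis, by -0.02 and 0.78. At 24 h the injured and sham arrays overlapped in each of these 5 genes. Of 34 measured cell cycle and DNA replication genes 3 were higher at 24 h and none lower, against 21.4% of all genes higher, and 7 were higher without SCI_MP duplicate 2. The list median was 0.12 at 24 h, -0.06 after quantile normalization, and 0.97 at 48 h. The 3 were Ccnd1, cyclin D1 (0.94 ± 0.18), Pcna, the sliding clamp (0.83 ± 0.17), and Mcm6, a helicase subunit (0.74 ± 0.22, but -0.36 and not called after quantile normalization). For Pcna the injured arrays lay between 0.68 and 0.98 and the shams between -0.33 and 0.25.

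The calls against 48 h were few and moved with single arrays. They numbered 106 higher and 82 lower without SCI_MP duplicate 1, 11 and 9 without SCI_MP duplicate 2, 19 and 22 without SCI_EtOH duplicate 1, and 14 and 25 without Sham_MP duplicate 2. Without Sham_EtOH duplicates 1 or 2 they were 3 and 14 or 1 and 8. The arrays of 24 and 48 h alone gave none, with 1004 genes at an unadjusted p under 0.05, and after quantile normalization 1 gene was called in each direction. None of the 13 genes named for this contrast was called in either of these fits.

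**Figure D5:**
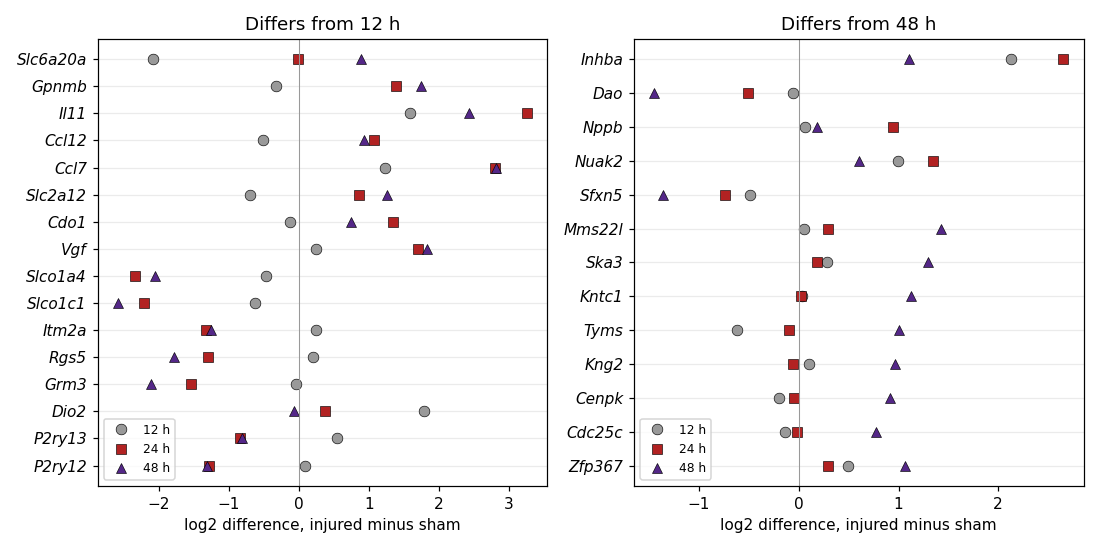
Log2 difference between injured and sham arrays at 12 h (circles), 24 h (squares) and 48 h (triangles) for the genes with the largest change from 12 h (left) and for those that differed from 48 h (right). The 24 h squares of Slco1a4, P2ry12 and Ccl7 lie close to 48 h and away from 12 h, while those of the genes of dividing cells lie closer to 12 h than to 48 h.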

How the data were processed

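Total RNA of the injured or sham cord was hybridised to Rat Gene 1.0 ST arrays, 1 rat per array. Per the methods, the authors used RMA in GeneSpring GX 11 with normalization of each chip and each gene. The deposited values are on the log2 scale. No genome build is named in the sources used here. No signal over background is held in these values, so dim probe sets were kept. Of 27342 probe sets, 15097 had 1 gene symbol in the platform annotation (15067 brought up to date by gene ID), 323 had several and 11922 none. Probe sets of a gene were averaged to 14324 genes, 499 of them from several probe sets.

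Groups came from the sample titles. limma 3.58.1 (R 4.3.3) was run on all 60 arrays with a mean for each combination of group and time (30 residual degrees of freedom), so the error of a 24 h contrast was shared over all groups. Injury, injury within medication, injury by medication, and 24 h minus 12 or 48 h were contrasts of this fit, moderated by eBayes, with Benjamini-Hochberg adjustment over all genes and a threshold of 0.05. The script was tested on simulated data. With 2 arrays per group, the number of arrays limits the precision.

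Named genes were the 15 largest rises and falls with all injured arrays apart from all shams, the 8 largest differences in each direction for the other contrasts, and 4 members per list, those with the largest injury effect past the threshold or else the smallest p. Members and lists were chosen with earlier results of these data known. Promoters came from RefSeq (GRCr8), by symbol, for 11823 of the genes. Alternatives were a fit of only the arrays compared, an additive and a plain fit of 8 arrays, quantile normalization, array medians of 0, array weights, a replicate block, a noise filter (coefficient of variation under 50% in at least 16 of 30 duplicate pairs, on the deposited values taken out of log2), probe sets tested singly, adjustment over all probe sets, a log2 change of 1, and leaving out each 24 h array. The noise filter kept 27338 of the 27342 probe sets, so it was not the filter as the authors ran it and tested nothing. A fit without the SCI_EtOH arrays of 6 h was chosen after seeing the data.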

Additional observations from a re-analysis of the deposited data

Results flagged for a closer look

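Groups of 2 arrays are too small for a test of single outlying arrays, so none was made. The genes below, named in the report or among the examples of its lists, had an injury effect that differed between medications or between times in the limma interaction (adjusted p under 0.05). Values are differences of log2 injury effects.

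For MP rats minus EtOH rats at 24 h the higher genes were Rpl22l1 (1.14), Efnb3 (0.94) and Htatsf1 (0.86). The lower ones were Arg1 (-2.57), G0s2 (-2.05), Ccl12 (-1.98), Mmp9 (-1.97), Slc16a3 (-1.86), Cyp4f18 (-1.62), Slamf9 (-1.58) and Cxcr4 (-1.57).

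For 24 h minus 12 h the higher genes were Slc6a20a (2.07), Gpnmb (1.71), Il11 (1.66), Ccl12 (1.58), Ccl7 (1.56), Slc2a12 (1.54), Cdo1 (1.47), Vgf (1.46), Trh (1.38), Angpt2 (1.22), Plin2 (1.22), Cd163 (1.18), Ucn2 (1.13), Anpep (1.09), Fcgr2b (1.02), Vcan (0.98), Tnfrsf12a (0.93), Nppb (0.88), Ddit3 (0.65) and Ldha (0.60). The lower ones were Slco1a4 (-1.87), Slco1c1 (-1.58), Itm2a (-1.58), Rgs5 (-1.51), Grm3 (-1.50), Dio2 (-1.42), P2ry13 (-1.39), P2ry12 (-1.37), Ermn (-1.08), Fa2h (-0.84), Tnr (-0.83), Gpr17 (-0.81), Atp1b2 (-0.78), Kcna2 (-0.73), Lss (-0.72), Clcn4 (-0.63) and Aqp4 (-0.62).

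For 24 h minus 48 h the higher genes were Inhba (1.55), Dao (0.94), Nppb (0.77), Nuak2 (0.75) and Sfxn5 (0.62). The lower ones were Mms22l (-1.13), Ska3 (-1.12), Kntc1 (-1.11), Tyms (-1.10), Kng2 (-1.02), Cenpk (-0.95), Cdc25c (-0.79) and Zfp367 (-0.77).

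Outside the comparisons of named genes, 3208 probe sets without exactly 1 gene symbol were called for injury at 24 h in the same fit.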

How the results depend on the processing

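With 2 arrays per group, 24 h results rest on the spread shared over all groups; where an array is left out, the lone array left is assumed to vary like the other groups. Injury at 24 h called 3059 genes higher and 3111 lower. A plain fit of the 8 arrays called 1968 higher, a log2 change of at least 1 left 494 and 632, and leaving out an array gave 2425 to 3081 higher and 2807 to 2952 lower. In EtOH rats quantile normalization gave 1710 higher, and leaving out an array gave 1772 to 2794 higher and 2013 to 2608 lower. In MP rats the latter gave 787 to 1667 and 1415 to 2182. Over all probe sets it gave 3731 to 4629 and 4319 to 4547 (main 4739 and 4868).

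Injury by medication called 3 higher and 40 lower. Only the 24 h arrays gave 0 and 0 (1414 genes at unadjusted p under 0.05, limma), array weights 1 higher, adjustment over all probe sets 6 higher, the fit without the SCI_EtOH arrays of 6 h 11 and 61, quantile normalization 1 lower, and leaving out an array 0 to 138 and 9 to 284. For 24 h minus 12 h (669 and 278), the arrays of those times gave 347 higher, quantile normalization 80 and 125, and leaving out an array 270 to 1155 and 139 to 516. For 24 h minus 48 h (5 and 15), the arrays of those times gave 0 and 0, quantile normalization 1 and 1, array weights 13 and 24, the fit without the 6 h arrays 14 and 24, and leaving out an array 1 to 106 and 8 to 82. The causes were not tested beyond the fewer arrays in some fits.

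The replicate numbers did not pair the samples: deviations of same-numbered arrays correlated between -0.29 and 0.29 over the group pairs. With the replicate block, injury by medication called 1 higher and 23 lower and 24 h minus 48 h 9 lower; the other counts stayed within 1.5 times. Of 182 named genes, 20 lost their injury call under at least 1 alternative; Mcm2 (-0.37) and Mcm6 (-0.36) changed sign under quantile normalization. A filter on dim probe sets was not run, since the values hold no level.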

Other observations

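Probe sets without a single gene symbol also differed with injury. Of 12245 such probe sets 1498 were higher and 1710 lower in the injured cord at 24 h (26.2%), against 3241 higher and 3158 lower of the 15097 probe sets with 1 symbol (42.4%). Over all 27342 probe sets 35.1% were called. What the unnamed probe sets measure is not given in the annotation used here.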
